A study of Ovis aries with 16 samples.

Results

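Immediate early transcription factors were examined in the hypothalamus of late-gestation fetal sheep (Ovis aries, Suffolk breed), collected 24 h after a 30 min stimulus began. The members were all array probes named FOS, FOSB, FOSL1, FOSL2, JUN, JUNB, JUND, EGR1, MYC or ATF3, either by the gene name on the array or by the current symbol of the probe's accession. Of 15008 probes, 11 met this rule, and they represented 5 of the 10 genes: 4 probes for FOS, 2 each for JUNB, EGR1 and MYC (printed as C-MYC on the array), and 1 for JUND. No probe carried the name FOSB, FOSL1, FOSL2 or ATF3. A further 2 probes are named C-JUN on the array, and their accession was not paired with the symbol JUN in the gene table used, so they are described beside the members and are not counted among them.

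Each fetus had chronic catheters and received either saline or ketamine intravenously. It was then exposed for 30 min either to normoxia or to hypoxia, which was produced by lowering the oxygen in the ventilation of the ewe, and both were followed by 23.5 h of normoxia. The groups were normoxia after saline (NC, n = 3), normoxia after ketamine (NK, n = 4), hypoxia after saline (HC, n = 5) and hypoxia after ketamine (HK, n = 4). Each of the 16 arrays held RNA from the hypothalamus of 1 fetus, and the arrays lay on 2 slides of 8 arrays with every group on both slides. The paper describes most of its fetuses as twins, with each pregnancy assigned to normoxia or hypoxia. Littermates may therefore lie in both groups of 1 stimulus. The labels do not name littermates, so fetuses of 1 ewe could not be taken into account, and the main tests treat all fetuses as independent.

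Immediate early genes are transcribed from pre-existing factors, without new protein synthesis, within minutes of a stimulus. Proteins of the FOS and JUN families pair through leucine zippers to form the AP-1 complex, EGR1 is a zinc finger factor and MYC a basic helix-loop-helix factor that pairs with MAX. In the hypothalamus, FOS in particular is widely used as a marker of recently activated neurons, and its RNA is usually short-lived, so that the 24 h collection samples these genes long after the stimulus ended.

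The probes for FOS, JUND and C-JUN that lie in coding sequence are shown first because they determine which part of each transcript was read. Of the 4 FOS probes, A_70_P016316 and A_70_P016317 differ by a shift of 1 base, and the capitals mark the 59 bases that they share, so they are repeated readings of 1 site in the part that codes for the leucine zipper. A_70_P001561 reads the start of the stretch that codes for the basic region of FOS, and the JUND probe reads the leucine zipper part of JUND. The 2 C-JUN probes do not overlap, and the capitals in A_70_P016313 mark a run of 5 CAG units, a motif (CAGCAGCAGCAGCAG, searched on both strands) that 0.0133% of all 15008 probes hold, or 2 probes. All are written 5′ to 3′ as on the array.

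FOS A_70_P016316: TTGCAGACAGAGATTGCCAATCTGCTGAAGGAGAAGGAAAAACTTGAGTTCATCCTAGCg
FOS A_70_P016317: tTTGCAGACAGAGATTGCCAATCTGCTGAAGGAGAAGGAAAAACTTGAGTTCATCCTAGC
FOS A_70_P001561: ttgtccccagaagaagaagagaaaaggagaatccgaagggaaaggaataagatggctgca
JUND A_70_P041716: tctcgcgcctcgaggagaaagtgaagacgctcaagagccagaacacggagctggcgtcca
C-JUN A_70_P016311: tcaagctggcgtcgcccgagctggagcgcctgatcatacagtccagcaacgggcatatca
C-JUN A_70_P016313: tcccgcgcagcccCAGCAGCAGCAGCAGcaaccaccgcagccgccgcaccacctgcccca

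G and C made up 75% of C-JUN A_70_P016313 and 60% of both A_70_P016311 and the JUND probe. The median over all probes was 43.3%, and the FOS probes shown were at 43.3 to 45%. The fourth FOS probe, A_70_P026731, shares no more than 5 bases with the others at its ends. The JUNB probes A_70_P041671 and A_70_P041672 share 59 of 60 bases, the MYC probes A_70_P030411 and A_70_P030412 share 20 and the EGR1 probes A_70_P041731 and A_70_P041732 share 22. Probes of 1 gene are therefore not independent of each other, and genome positions of the probes were not analysed here.

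Levels are given as log2 of the processed signal minus the array's 75th percentile, so that 0 is a signal equal to the 75th percentile of that array. A probe was tested when it was well above background on at least 3 arrays, which 12249 probes were. Of the 11 members 10 were tested, and of these 9 were well above background on all 16 arrays. FOS A_70_P001561 was well above background on 13 arrays, which were 2 of 3 NC, 2 of 4 NK and all HC and HK arrays. EGR1 A_70_P041731 was well above background on 2 arrays only, HC1 and HK4, and was not tested. No member probe was saturated on any array.

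FOS, JUNB and MYC were highest in 3 fetuses of the HC group, HC1, HC4 and HC2. HC5 was at or near the levels of the normoxic fetuses for these genes, and so was HC3 for FOS and MYC. For JUNB, HC3 lay above every normoxic fetus. FOS pairs with the JUN proteins in AP-1. On its brightest probe, A_70_P026731, FOS was at 0.33, -0.17 and -0.39 in NC1 to NC3 and at -0.51, -0.03, -0.80 and 0.30 in NK1 to NK4. In HC1 to HC5 it was at 1.65, 0.59, -0.08, 1.66 and -0.61, and in HK1 to HK4 at 0.17, 0.20, -0.06 and 0.33. HC1, HC2 and HC4 thus lay above every other fetus and the HC5 fetus lay below all but NK3, so the HC range covered nearly the whole range of the other groups, whereas the 4 HK fetuses lay close together. The group means were -0.08 ± 0.37 (SD, n = 3) in NC, -0.26 ± 0.49 (SD, n = 4) in NK, 0.64 ± 1.02 (SD, n = 5) in HC and 0.16 ± 0.16 (SD, n = 4) in HK. In whole tissue, a change in the number of cells that make a transcript and a change in the RNA per cell cannot be told apart.

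**Figure D1:**
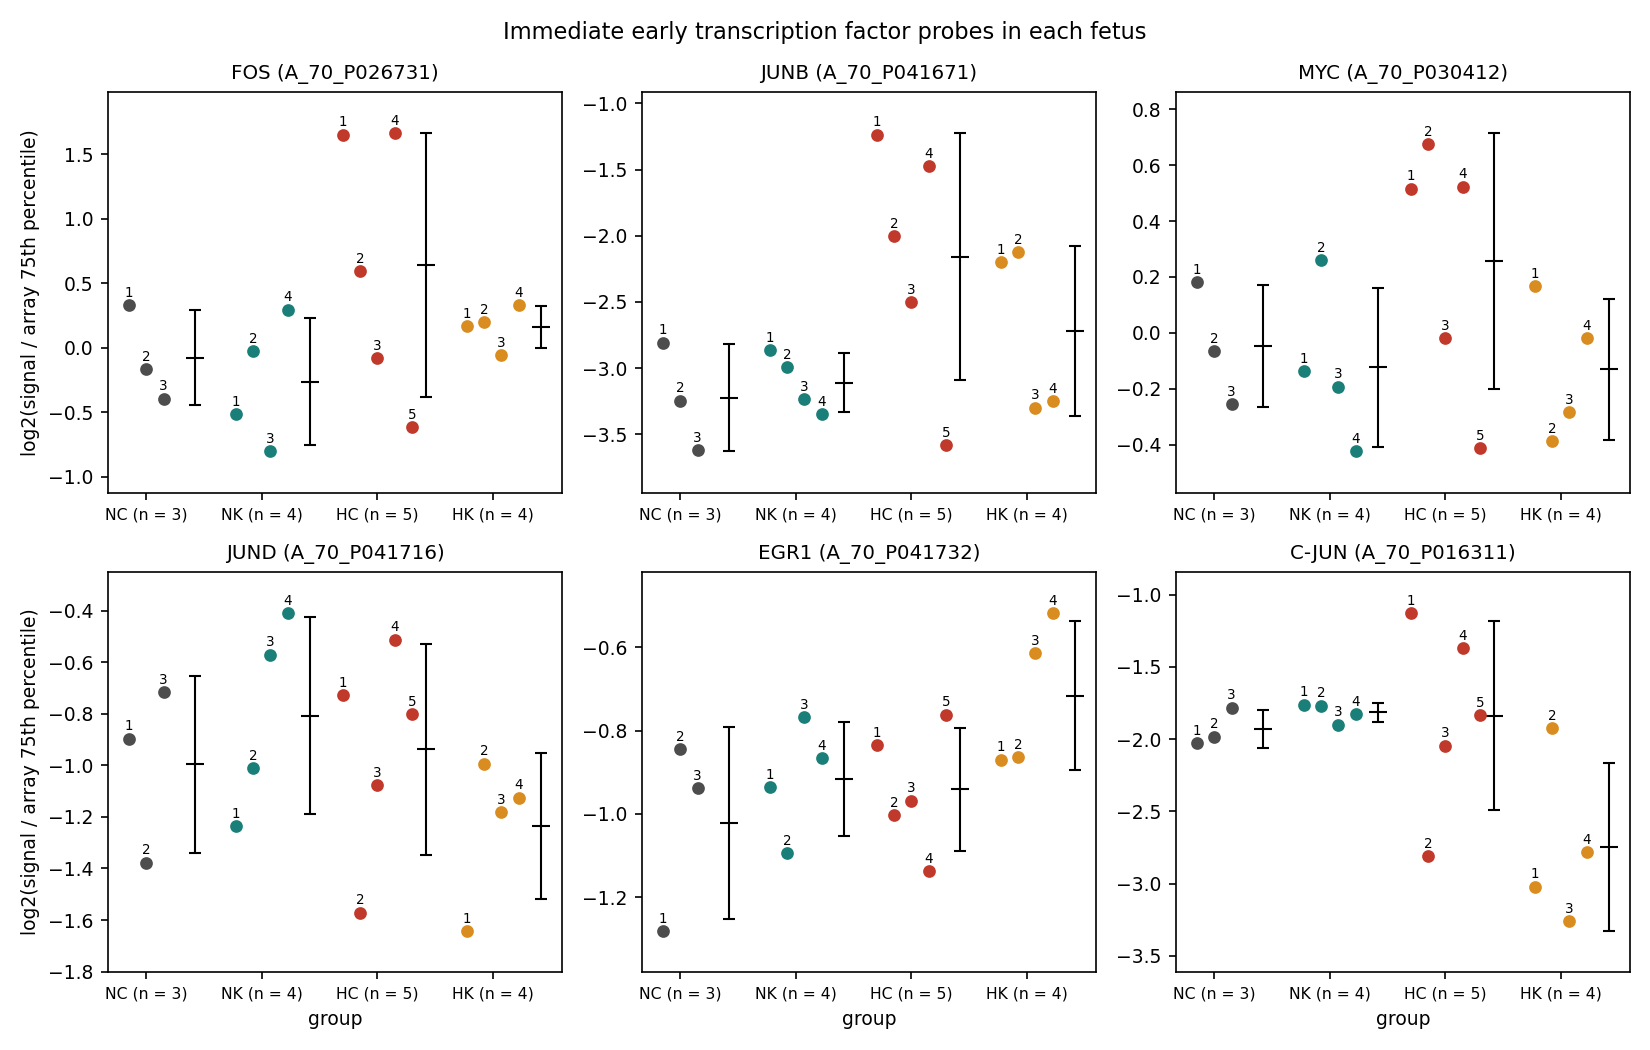
Level of 1 probe of each gene in each fetus, as log2 of the signal over the 75th percentile of the array, by group; numbers beside points are replicate numbers, and the black bars are the group mean and SD. FOS, JUNB and MYC have HC1, HC2 and HC4 at the top with HC5 near the bottom, JUND and EGR1 overlap in all groups, and 3 of 4 HK fetuses are low for C-JUN.

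The other FOS probes followed the same fetuses. On A_70_P001561 the levels were -5.64, -5.80 and -5.84 in NC, -5.57, -6.10, -5.39 and -5.16 in NK, -3.69, -4.69, -5.35, -3.98 and -5.92 in HC and -4.86, -5.67, -5.67 and -5.35 in HK. HC1, HC4 and HC2 were again the 3 highest, and HC5 was below all 3 NC fetuses. Over the 16 arrays, A_70_P026731, A_70_P016316 and A_70_P016317 correlated with each other at Pearson's r of 0.971 to 0.987 and the dimmer A_70_P001561 with them at 0.83 to 0.849.

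JUNB, an AP-1 subunit that pairs with FOS, was at -2.81, -3.25 and -3.62 in NC on probe A_70_P041671 and at -2.86, -2.99, -3.24 and -3.35 in NK. In HC it was at -1.24, -2.001, -2.50, -1.48 and -3.58, and in HK at -2.20, -2.13, -3.30 and -3.25. Of the HC fetuses 4 lay above every normoxic fetus and HC5 lay near the lowest of all, and HK1 and HK2 lay above every normoxic fetus while HK3 and HK4 did not. Probe A_70_P041672 ranked HC1, HC4 and HC2 in the same 3 places (-1.32, -1.39 and -2.08), with NC at -3.05 to -3.12.

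MYC, which drives genes of growth and metabolism, varied less. On A_70_P030412 it was at 0.18, -0.06 and -0.25 in NC, at -0.14, 0.26, -0.19 and -0.42 in NK, at 0.52, 0.67, -0.02, 0.52 and -0.41 in HC and at 0.17, -0.39, -0.28 and -0.02 in HK. The same 3 HC fetuses were the highest, here with HC2 first. The 2 MYC probes correlated at r = 0.954 over the 16 arrays.

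Over the 8 tested probes of FOS, JUNB and MYC, HC1, HC2 and HC4 held the 3 highest places on all 8, and HC5 was among the 3 lowest on all 8. HC1, HC2 and HC4 were each above every NC fetus on 8 of 8, HC3 on 3 and HC5 on 0. The HK fetuses were above every NC fetus on 5 (HK1), 2 (HK2), 0 (HK3) and 2 (HK4) of the 8, and the NK fetuses on 1 to 3. The SD of the HC group was the largest of the 4 groups on each of the 8 probes, at 0.43 to 1.02 against 0.04 to 0.64 in the other groups. These 3 genes were grouped after their levels had been seen, and the counts describe the arrays with no test.

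**Figure D2:**
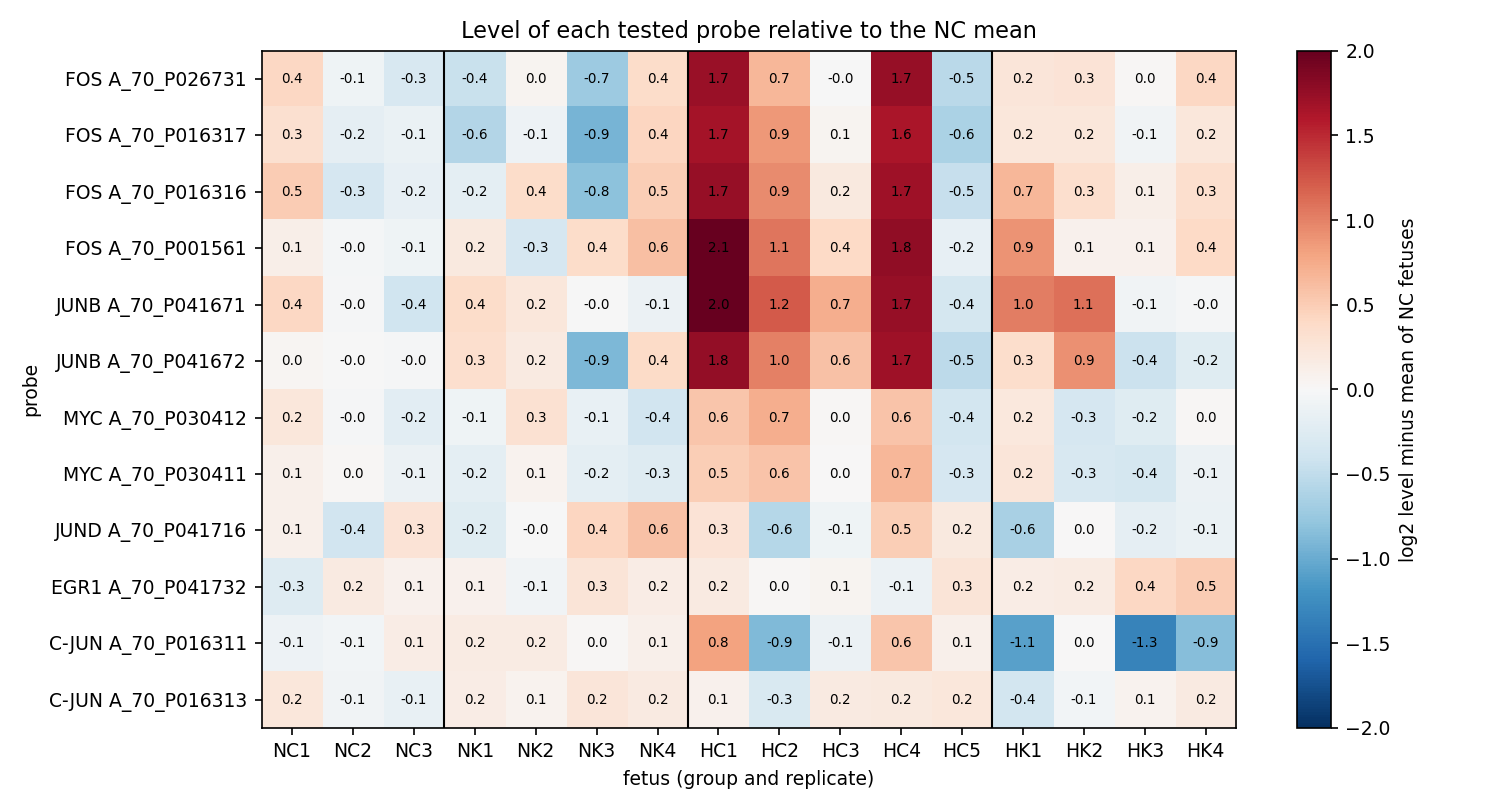
Log2 level of each tested probe (rows) in each fetus (columns) minus the mean of the 3 NC fetuses, with the colour scale ending at -2 and 2. The red block of FOS, JUNB and MYC probes lies in HC1, HC2 and HC4, and HC5 is pale blue on these probes. JUND, EGR1 and C-JUN A_70_P016313 are also pale, in both colours.

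The remaining members, JUND and EGR1, differed from FOS, JUNB and MYC in the order of the fetuses. The SD over the 16 arrays was 0.36 for JUND, close to the 0.33 and 0.35 of the MYC probes. It was 0.19 for EGR1 A_70_P041732. JUND, an AP-1 subunit that many cells make at rest, was at -1.38 to -0.72 in NC, -1.24 to -0.41 in NK, -1.57 to -0.51 in HC and -1.64 to -0.99 in HK. HC1 and HC2 lay at -0.73 and -1.57, so that JUND did not follow the order of FOS. EGR1 was at -1.28, -0.84 and -0.94 in NC on A_70_P041732, at -1.09 to -0.77 in NK, at -1.14 to -0.76 in HC and at -0.87, -0.86, -0.61 and -0.52 in HK. HK3 and HK4 were the highest 2 of the 16 arrays for EGR1, and the whole range of the 16 fetuses was smaller than the gap between HC1 and NC1 for FOS.

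The comparison of HC with NC asks what 30 min of hypoxia left in the tissue 24 h later. FOS and JUNB were each higher in HC on 1 probe by limma's moderated test. FOS A_70_P001561 was higher by 1.03 ± 0.42 (log2, SE), or 2.04-fold, with an unadjusted p of 0.0266, and JUNB A_70_P041671 by 1.07 ± 0.45, or 2.09-fold, with an unadjusted p of 0.0339. An exact two-sided permutation test of the same 3 against 5 fetuses gave p = 0.125 for both. These were 2 of the 10 tested members, and 8.15% of all tested probes passed the same threshold in either direction, with 4.22% higher in HC. Neither passed once p-values were adjusted by Benjamini-Hochberg over the 12249 probes (adjusted p = 0.538 and 0.562), nor did any other probe on the array.

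All 10 tested members had a higher mean in HC than in NC, with a median difference of 0.72 on the log2 scale against -0.03 for all tested probes. These are probes of 5 genes, and FOS has the most. With 1 probe per gene the median difference was 0.30. The other 3 FOS probes differed by 0.72 to 0.82 (adjusted p of 0.675 to 0.724 by limma) and JUNB A_70_P041672 by 0.91 (adjusted p = 0.656). MYC differed by 0.28 and 0.30 (adjusted p = 0.773 and 0.787). The differences of EGR1 (0.08, 95% interval -0.19 to 0.35) and JUND (0.06, interval -0.48 to 0.60) did not pass the test. No member had HC and NC fetuses that did not overlap, while 4.92% of all probes that could be compared did.

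Single fetuses decided these calls. FOS A_70_P001561 no longer passed when HC1, HC4, NC2 or NC3 was left out, with differences of 0.77 to 1.01, and JUNB A_70_P041671 no longer passed without HC1, HC2, HC4, NC2 or NC3, at 0.83 to 1.05. With the deposited log2 values the FOS A_70_P001561 difference was 0.19 and no longer passed, and with normexp background correction it was 0.32. The JUNB A_70_P041671 difference was 0.64 with the deposited values and still passed. Without HC5 the count of members called rose from 2 to 8 of 10. Within slides, the FOS A_70_P001561 difference was 1.53 on slide 1 (2 HC against 2 NC) and 0.76 on slide 2 (3 against 1), and the JUNB A_70_P041671 difference was 1.41 and 1.099.

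**Figure D3:**
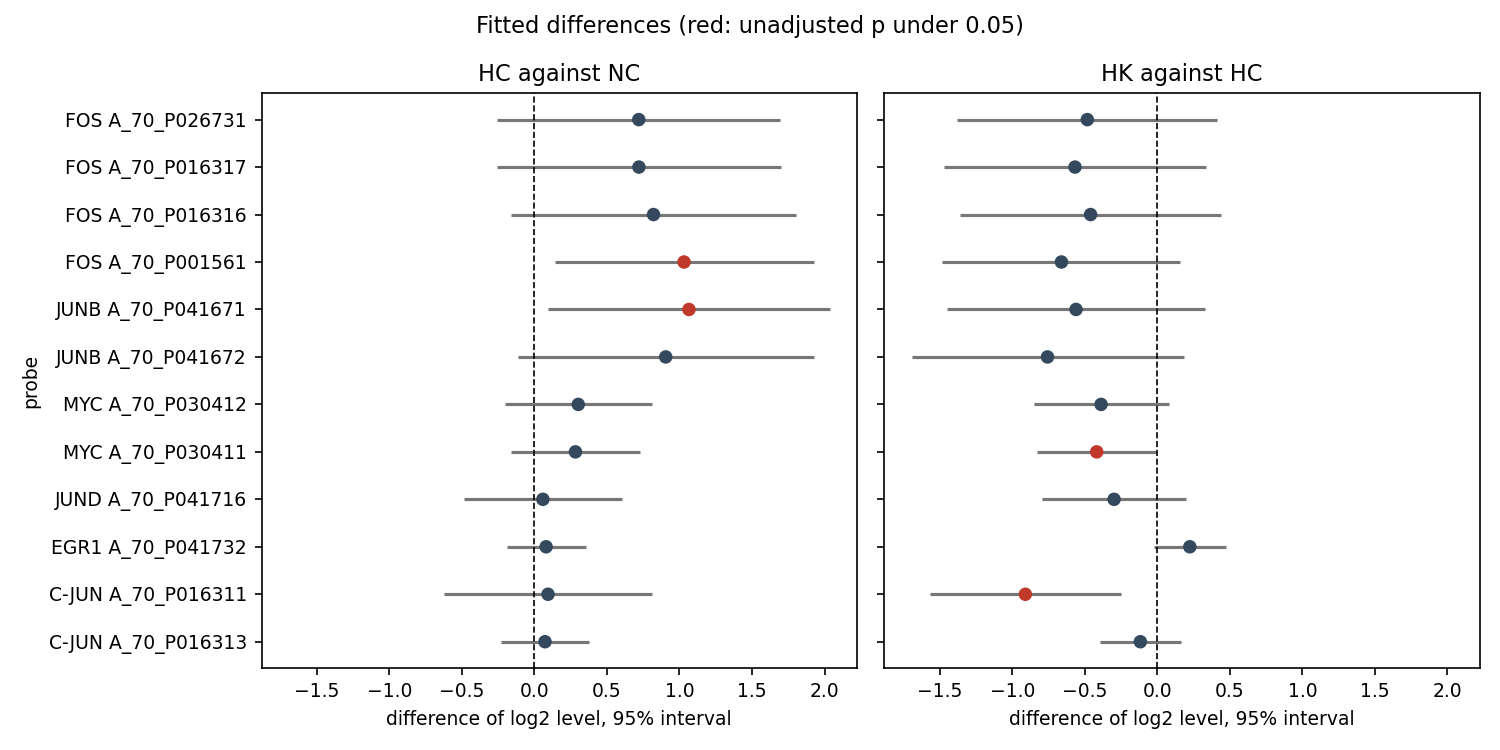
Fitted difference of the log2 level with its 95% interval for each tested probe, HC against NC on the left and HK against HC on the right; red points passed an unadjusted p of 0.05. FOS, JUNB and MYC probes lie to the right of 0 on the left and to the left of 0 on the right, with most intervals crossing 0.

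The comparison of HK with HC asks what ketamine changed under hypoxia. MYC A_70_P030411 was lower in HK by limma, the difference being -0.42 ± 0.19 (log2, SE; 1.34-fold lower, unadjusted p of 0.0465, adjusted p = 0.709, exact permutation p = 0.143). It was the only 1 of the 10 tested members past the threshold, and 7.04% of all tested probes were, with 3.79% lower in HK. Its levels were -0.31, -0.23, -0.80, -0.14 and -1.13 in HC and -0.56, -1.12, -1.16 and -0.92 in HK, so that HC3 and HC5 lay within the HK range. This call was lost when any array but HC3, HC5 or HK1 was left out.

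Of the 10 members 9 had a lower mean in HK than in HC, with a median difference of -0.47 against 0.03 for all tested probes. With 1 probe for each of the 5 genes, the median difference was -0.39. The FOS probes differed by -0.66 to -0.46 (adjusted p of 0.742 to 0.836 by limma), the JUNB probes by -0.76 and -0.56 (adjusted p = 0.742 and 0.803) and MYC A_70_P030412 by -0.39 (adjusted p = 0.74). EGR1 went the other way, at 0.22 (interval -0.03 to 0.47, exact permutation p = 0.0952). HC is shared by both comparisons, so a high or low HC fetus moves them in opposite directions, and without HC5 the count of members called was 9 of 10 in place of 1.

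Ketamine in normoxia gave no called member (0 of 10 by limma, against 1.09% of all tested probes), with a median difference of NK against NC of -0.02 over the members. FOS A_70_P026731 differed by -0.19 (interval -1.21 to 0.83), JUNB A_70_P041671 by 0.11 (-0.90 to 1.13) and MYC A_70_P030412 by -0.08 (-0.61 to 0.45). These intervals include changes as large as those seen between HC and NC. Between HK and NK again 0 of 10 members were called, against 8.69% of all tested probes, and JUND had the lowest p, with a difference of -0.43 (interval -0.96 to 0.10, adjusted p = 0.676).

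The interaction, which is the ketamine difference under hypoxia minus that in normoxia, called 0 of 10 members, against 3.8% of all tested probes. It was -0.30 for FOS A_70_P026731 (interval -1.65 to 1.06) and -0.67 for JUNB A_70_P041671 (-2.03 to 0.68). A difference in the ketamine effect between hypoxia and normoxia was therefore not shown for any member, with intervals too wide to exclude a large one. By the F test over the 4 groups, 0 of 10 members passed at an unadjusted p of 0.05, against 7.86% of all tested probes, and the lowest p, that of FOS A_70_P001561, was 0.0909.

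C-JUN, the array's name for the central partner of FOS in AP-1, gave a different picture on its 2 probes. A_70_P016311 was at -2.03, -1.98 and -1.78 in NC and at -1.76, -1.77, -1.90 and -1.83 in NK. In HC it was at -1.13, -2.81, -2.05, -1.37 and -1.83, and in HK at -3.02, -1.92, -3.26 and -2.78. The normoxic fetuses lay close together, HC1 and HC4 were again the highest, HC2 was not with them, and all 4 HK fetuses lay below all 4 NK fetuses.

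The C-JUN A_70_P016311 difference was -0.93 ± 0.32 (log2, SE; unadjusted p of 0.012, adjusted p = 0.421 by limma) for HK against NK and -0.91 ± 0.31 (unadjusted p of 0.0102, adjusted p = 0.685) for HK against HC. Of all probes compared, 5.42% had HK and NK fetuses that did not overlap. With the deposited log2 values these differences were -0.53 and -0.54 and still passed. The difference from NK held with every array left out in turn, at -1.21 to -0.76, and an exact two-sided permutation test gave p = 0.0286, the smallest that 4 against 4 fetuses allow. For HK against HC the exact permutation test gave p = 0.0714. A_70_P016313 differed by -0.21 (interval -0.50 to 0.09) and -0.12 (-0.40 to 0.16) in the same comparisons and correlated with A_70_P016311 at r = 0.449 over the 16 arrays, so the C-JUN probes disagreed in size.

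FOS, JUNB and MYC varied together across fetuses on their brightest probes. FOS correlated with JUNB at Pearson's r = 0.816 (two-sided permutation p = 0.00011, adjusted p = 0.0011 over 10 pairs) and Spearman's rho = 0.606 (permutation p = 0.0146, adjusted p = 0.0583), n = 16 fetuses. JUNB correlated with MYC at r = 0.738 (permutation p = 0.00138, adjusted p = 0.0069) and rho = 0.729 (permutation p = 0.00177, adjusted p = 0.0177). FOS correlated with MYC at r = 0.707 (permutation p = 0.00217, adjusted p = 0.00723) and rho = 0.594 (permutation p = 0.0175, adjusted p = 0.0583). The other 7 pairs, all with JUND or EGR1, had r between -0.468 and 0.153 and none passed after adjustment.

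Within slide 1 and slide 2 (8 fetuses each) the r values were 0.863 and 0.81 for FOS and JUNB, 0.638 and 0.792 for FOS and MYC, and 0.454 and 0.924 for JUNB and MYC. With the group means removed they were 0.75, 0.643 and 0.7. Without HC1 and HC4, the fetuses farthest from the median, they fell to 0.548, 0.509 and 0.574, and among the 11 fetuses outside the HC group they were 0.34, 0.177 and 0.245. The relations thus rested to a large part on the HC fetuses. All levels on an array share that array's scaling and hybridization.

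**Figure D4:**
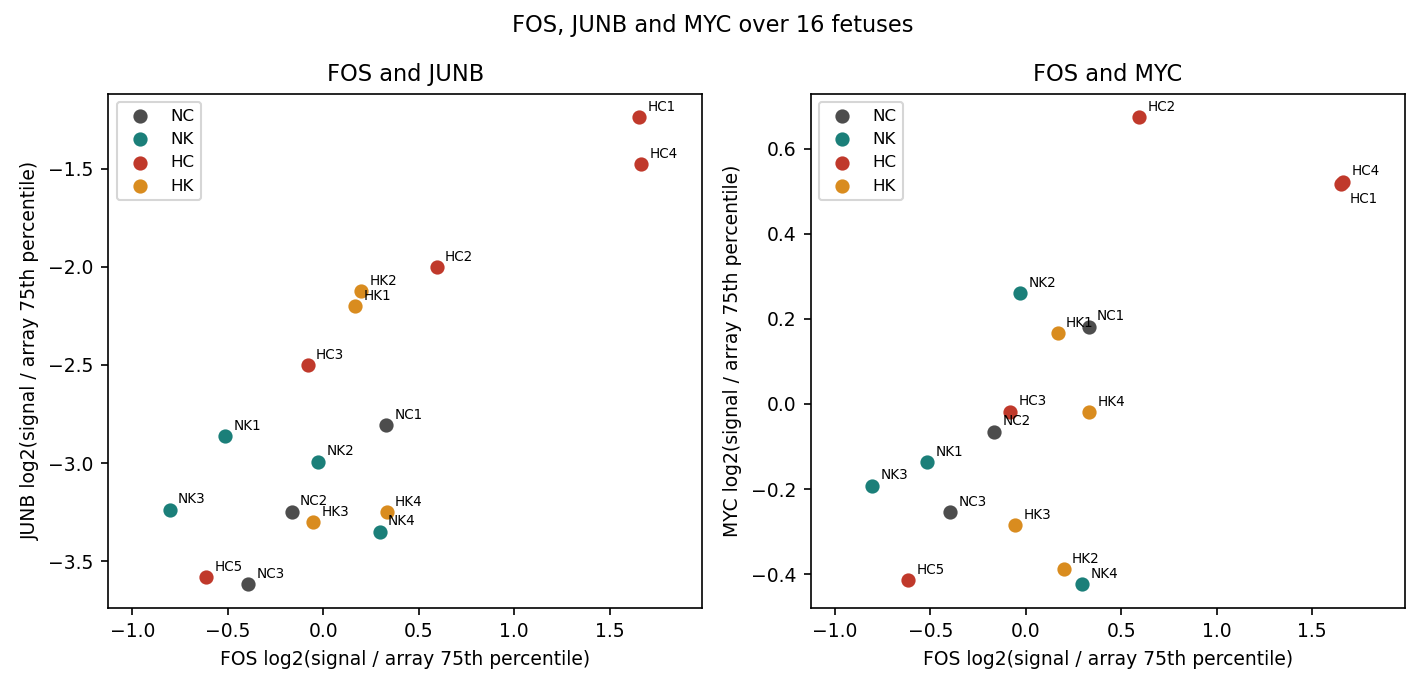
Log2 level of JUNB (left) and MYC (right) against that of FOS in the 16 fetuses, coloured by group. HC1, HC4 and HC2 lie at the upper right, HC5 lies at the lower left among normoxic fetuses, and the 11 fetuses outside HC form a loose cloud.

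The genes whose pattern over the 16 arrays was most like that of each member were taken from 863 named genes, 3 for each member, and the correlations are descriptions. For JUNB they were CXCL8 (r = 0.93), a chemokine that attracts neutrophils, NFKBIA (0.867), an inhibitor of NF-kappaB, and EDN1 (0.85), the vasoconstrictor endothelin. For FOS they were LOC100037673 (0.861), CXCL8 (0.86) and IL1B (0.834), an inflammatory cytokine. For MYC they were AREG (0.819), a ligand of the epidermal growth factor receptor, CEBPB (0.798) and LOC100037678 (0.793). JUND was nearest to CENP-C (0.817), LOC100137071 (0.811) and NDUFA12 (0.748), and EGR1 to MYL11 (0.776), NOX5 (0.717) and RABGGTB (0.703). Only CXCL8 was shared, by FOS and JUNB. MYC, JUND and EGR1 each shared no nearest gene with any other member. Spearman's rho for the 3 genes nearest to FOS, in the order given, was 0.685, 0.647 and 0.521. For those of JUNB it was 0.926, 0.638 and 0.738, and for those of MYC 0.8, 0.676 and 0.612. CXCL8 was well above background on 11 of the 16 arrays.

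Partner genes and other immediate early genes were counted from lists of known members. Of 26 genes of the bZIP class or MYC partners, 7 had a tested probe, and by limma 2 were higher in HC than in NC, CREM and CEBPB. The share of all tested probes called higher in HC was 4.22%. CREM encodes activators and repressors that act at cyclic AMP response elements. It was at -4.37, -4.61 and -4.84 in NC, -4.35, -4.38, -4.06 and -4.20 in NK, -3.20, -3.36, -4.02, -2.52 and -3.92 in HC and -4.22, -4.43, -4.00 and -4.14 in HK. Every HC fetus lay above every NC fetus, and HC1, HC2 and HC4 lay above all others.

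CREM was higher in HC than in NC by 1.20 ± 0.26 (log2, SE; unadjusted p of 0.00048, adjusted p = 0.335 by limma, exact permutation p = 0.0357) and lower in HK than in HC, at -0.79 ± 0.24 (unadjusted p of 0.00575, adjusted p = 0.685, exact permutation p = 0.0476). Its interaction was -1.16 ± 0.37 (unadjusted p of 0.00743, adjusted p = 0.994), and all 3 calls held in every alternative run. CEBPB, a bZIP factor of inflammatory and metabolic genes, was higher in HC by 1.61 ± 0.57 (unadjusted p of 0.0131, adjusted p = 0.479, exact permutation p = 0.0893), with HC2, HC4 and HC1 at -2.32, -2.61 and -3.43 and the NC fetuses at -5.32 to -5.02. HC5, at -5.06, was within the NC range, and HK1 reached -3.13. ATF4, ATF6, CREB1 and DDIT3 were not called between HC and NC.

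**Figure D5:**
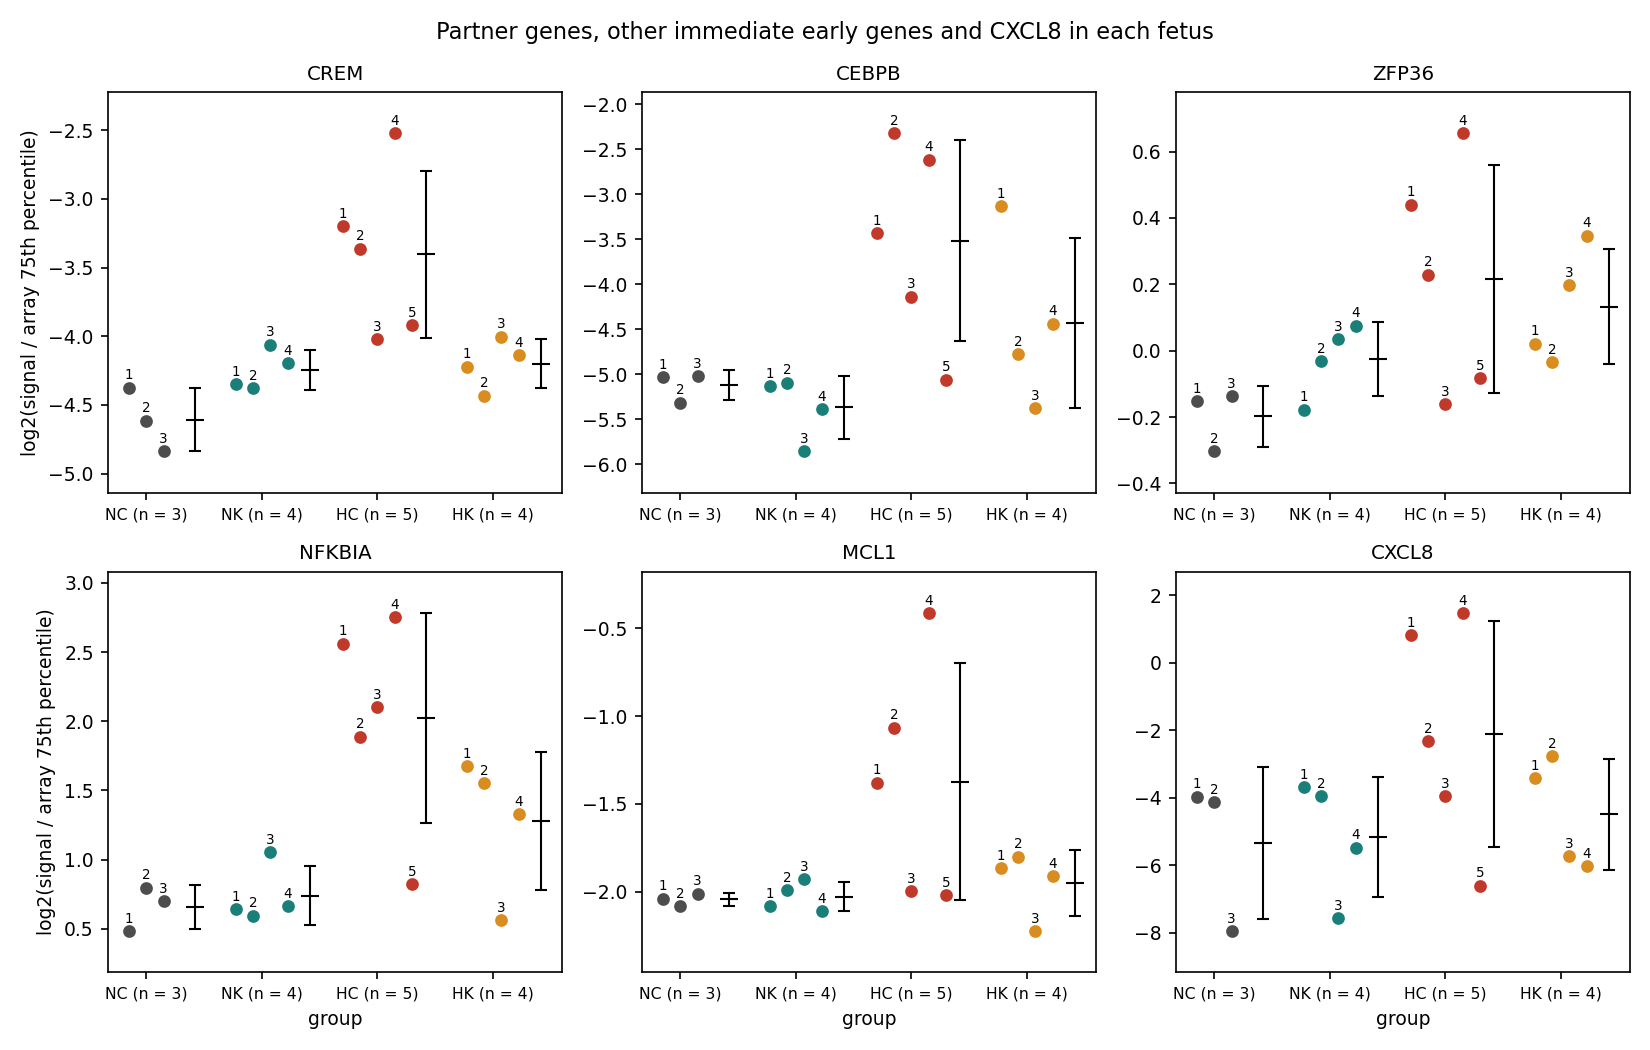
Level of CREM, CEBPB, ZFP36, NFKBIA, MCL1 and CXCL8 in each fetus, as log2 of the signal over the 75th percentile of the array, by group; numbers are replicate numbers and black bars are the group mean and SD. HC4 and HC1 are high in all 6 panels, and HC5 lies among the normoxic fetuses in all but CREM.

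Of 34 other immediate early genes, 4 had a tested probe. By limma 3 of them rose in HC over NC, against 4.22% of all tested probes. They were ZFP36, which promotes decay of cytokine messages, by 0.41 ± 0.16 (log2, SE; adjusted p = 0.533), NFKBIA by 1.37 ± 0.36 (adjusted p = 0.342) and MCL1, an inhibitor of apoptosis, by 0.67 ± 0.28 (adjusted p = 0.551). Exact permutation tests gave p = 0.107, 0.0536 and 0.143. NFKBIA was at 2.56, 1.89, 2.10, 2.75 and 0.82 in HC against 0.48, 0.80 and 0.70 in NC, and at 1.68, 1.55, 0.56 and 1.33 in HK. Here HC3 joined the high fetuses and HC5 exceeded NC2, the highest NC fetus, by a small margin only.

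NFKBIA and MCL1 were lower in HK than in HC, at -0.74 ± 0.33 (adjusted p = 0.698 by limma, exact permutation p = 0.135) and -0.58 ± 0.26 (adjusted p = 0.707, exact permutation p = 0.143), and ZFP36 differed by -0.08 ± 0.15. Among all tested probes, 3.79% were called lower in HK than in HC. RHOB, a small GTPase, differed by -0.11 ± 0.20 between HC and NC. The call of NFKBIA in HK against HC was lost in 6 of 26 alternatives and that of MCL1 in 14 of 26 alternatives, among them the omission of any 1 fetus other than HC3, HC5 or HK2. Upstream of the members, 2 of 24 listed genes had a probe, the kinase PRKACA and the glutamate receptor subunit GRIN1, which forms the receptor that ketamine blocks, and neither was called in any comparison.

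Of 24 known targets of AP-1, 12 were tested. At the same unadjusted threshold 2 of them rose in HC over NC, against 4.22% of all tested probes, and these 2 are named after their values were seen. They were PTGS2, the inducible cyclooxygenase, by 2.95 ± 0.55 (log2, SE; adjusted p = 0.272 by limma, exact permutation p = 0.0179) and PLAUR, the urokinase receptor, by 1.29 ± 0.44 (adjusted p = 0.469, exact permutation p = 0.107). By limma PTGS2 and IL6 were lower in HK than in HC, at -1.14 ± 0.50 (adjusted p = 0.698, exact permutation p = 0.159) and -1.59 ± 0.60 (adjusted p = 0.685, exact permutation p = 0.0952), and the PTGS2 call was lost in 7 of 26 alternatives. Among all tested probes, 3.79% were called lower in HK than in HC. PTGS2 was the 1 of 12 targets called in HK against NK, where 8.69% of all tested probes were called. It was higher in HK by 1.32 ± 0.53 (adjusted p = 0.484 by limma, exact permutation p = 0.0857). IL6 was at -1.58 and -1.83 in HC1 and HC4 and at -4.68 to -4.53 in the other 3 HC fetuses, so its spread lay in the fetuses with the highest FOS.

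Markers of other cell types also differed between HC and NC. At the unadjusted threshold of 0.05 by limma, 4.22% of all tested probes were higher in HC. Of 4 tested markers of microglia and macrophages 3 were called higher in HC, ITGAM by 0.74 ± 0.33 (log2, SE; adjusted p = 0.585 by limma), CD14 by 1.34 ± 0.59 (adjusted p = 0.583) and FCER1G by 0.45 ± 0.21 (adjusted p = 0.603), and CTSS differed by 0.27 ± 0.27. Exact permutation tests gave p = 0.125, 0.125 and 0.161 for the 3, and their calls were lost in 11 of 25, 8 of 26 and 19 of 26 alternatives. The 3 genes were named after their values were seen. CD14 was also lower in HK than in HC, at -1.35 ± 0.55 (adjusted p = 0.688 by limma, exact permutation p = 0.0952). ITGAM, FCER1G and CTSS differed by -0.08, -0.31 and -0.24 between HK and HC and were not called. Among all tested probes, 3.79% were called lower in HK than in HC.

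The markers did not rank the HC fetuses alike. CD14, a receptor for bacterial lipopolysaccharide, was at -1.59, -0.18, -1.24, -1.01 and -3.46 in HC1 to HC5 against -2.90 to -2.75 in NC, so that HC1 to HC4 were above every NC fetus and HC5 below. The summed level of the 4 markers, in units of the array's 75th percentile, was 3.14 to 3.78 in NC, 3.34 to 3.75 in NK, 2.87 to 8.73 in HC and 2.88 to 4.13 in HK. It was 2.87 in HC1, 8.73 in HC2, 4.72 in HC3, 4.35 in HC4 and 3.60 in HC5, and most of this sum came from CTSS.

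Of 6 tested endothelial genes, 2 were called higher and 1 lower in HC than in NC, named here after their values were seen. Calls in either direction made up 8.15% of all tested probes. SELP, the adhesion molecule P-selectin, was higher by 4.70 ± 1.09 (log2, SE; adjusted p = 0.342 by limma, exact permutation p = 0.0357) and ICAM1, which binds leukocyte integrins, by 2.42 ± 0.80 (adjusted p = 0.442, exact permutation p = 0.0714). KDR, a receptor of vascular endothelial growth factor, was lower, at -0.67 ± 0.28 (adjusted p = 0.547, exact permutation p = 0.0536). SELP lay between -6.88 and -4.98 in NC, where 2 of 3 arrays were well above background, and between -3.97 and 1.37 in HC. SELP was also higher in HK than in NK, by 3.24 ± 1.06 (adjusted p = 0.39 by limma, exact permutation p = 0.0571). Of the 4 NK arrays, only 1 was well above background for SELP. SELP was the 1 of 6 endothelial genes called in this comparison, where 8.69% of all tested probes were called. The summed level of the 6 was 0.95 to 1.15 in NC and 1.07 to 3.85 in HC. PECAM1, FLT1 and SELE differed between HC and NC by 0.03, 0.32 and -0.28 and were not called. The higher sum in HC was thus not shared by all 6 genes. The part of these cell types in the results on FOS, JUNB and MYC was not tested.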

How the data were processed

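RNA from 16 fetal hypothalami was labelled with Cy3 and hybridized by the authors to 1-colour Agilent sheep arrays of 15744 spots on 2 slides. The deposited scanner files (Feature Extraction 10.1.1.1, per the file headers) hold intensity values, used as the processed signal, and the deposited value table holds log2 values of the same arrays, used as an alternative; any scaling of that table is not given in the sources used here. No genome build is used. The 75th percentile of the processed signal was 1248 to 1597 per array, and 71.7 to 80.6% of probes were well above background. The number of arrays limits the precision.

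Control spots and outlier spots (0.0801%) were removed, log2 signals were reduced by each array's 75th percentile, and the 12249 probes that passed the background filter (3 arrays or more) were fitted in limma 3.58.1 (R 4.3.3) with 1 mean per group over all 16 arrays. Thresholds were an unadjusted p of 0.05, as in the study's methods, and the Benjamini-Hochberg adjusted p; limma's test was checked on simulated data. Correlations used 100000 permutations (Python 3 with scipy). Each group is separate fetuses. Of 750 probes with a RefSeq accession, 726 were named by it. For list genes, the brightest tested probe stood for the gene. Named were all members with a probe, called genes of the lists of other immediate early genes, partners and upstream kinases, and the 3 genes most like each member. Members and lists were chosen with earlier results of these data known. The alternatives were quantile normalization, normexp background correction, the deposited log2 values, other filters on dim probes, slide or replicate number as a block, array weights, only the groups compared, 1 probe per gene, the exact permutation test and the omission of each array. Correlations between arrays were 0.957 to 0.987, and no array duplicated another.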

Additional observations from a re-analysis of the deposited data

Results flagged for a closer look

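Among 81 groups of 4 or 5 fetuses examined for a single fetus far from the rest, 7 had one, and chance gives about 1 in 20. The gap to the nearest fetus as a share of the group's range was 0.978 for FOS A_70_P016317 in HK3 (level -3.75, nearest -3.45), where the whole HK range is small. It was 0.841 for JUNB A_70_P041672 in NK3 (-3.98, nearest -2.91), while JUNB A_70_P041671, which shares nearly its whole sequence, placed NK3 at -3.24 within its group. It was 0.742 for C-JUN A_70_P016313 in HC2 (2.08, nearest 2.47). Among the related genes it was 0.85 for NFKBIA in NK3 (1.05, nearest 0.67), 0.896 for PLAUR in NK4 (-4.42, nearest -5.31), 0.84 for FCER1G in NK1 (-0.72, nearest -0.53) and 0.857 for KDR in HK1 (-5.56, nearest -5.30).

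The interaction passed the unadjusted threshold, and not the adjusted one, for 2 of the probes described, as it did for 3.8% of all tested probes. It was -1.03 for C-JUN A_70_P016311 (unadjusted p of 0.0442 by limma, adjusted p = 0.994) and -1.16 for CREM A_70_P012577 (unadjusted p of 0.00743, adjusted p = 0.994). HK was lower than HC in both, and NK differed from NC by 0.12 for C-JUN A_70_P016311 and by 0.36 for CREM. The C-JUN interaction no longer passed with 13 of the 16 fetuses left out in turn (all but HC2, HC3 and HK2), at -1.30 to -0.85 over the 16. It also no longer passed with quantile normalization, normexp, the slide block, the replicate block or the deposited values, where it was -0.58, while that of CREM passed in all of these, at -1.31 to -0.94 with each fetus left out.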

How the results depend on the processing

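The direction for FOS, JUNB and MYC held in 210 of 210 alternative values for HC against NC (0.19 to 1.47) and in 210 of 210 for HK against HC (-1.12 to -0.18), while the number of calls moved widely. These are not 210 separate checks. A difference of group means is unchanged by omitting an array of another group or by another filter on dim probes. It is also unchanged with only the groups compared and in the permutation test. Probes of the same gene are not independent, and these genes were grouped after their levels had been seen. The planned normexp correction could not be used: on 5 arrays 1 to 10 spots had a local background at or above their foreground, and the fitted background was -640 on NC3 and -739 on HK1. Normexp without those spots was added after seeing the data.

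Of 2 members called for HC against NC, 1 remained in number with 1 probe per gene, the deposited log2 values, normexp, quantile normalization or probes well above background on all arrays, and 0 with the exact permutation test or only the groups compared; omitting each array gave 0 to 8. For HK against HC (1 call) the count was 0 with 1 probe per gene, quantile normalization, the exact permutation test or only the groups compared, 2 with the deposited values or normexp, 3 with array weights or a slide block, and 0 to 9 with each array omitted. For HK against NK (0 calls) it was 1 with array weights, the deposited values or normexp and 0 to 1 with each array omitted, and for the interaction 0 to 1. The cause was not tested.

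With the replicate block 8 members were called for HC against NC, 8 for HK against HC and 3 for the interaction. Replicate numbers were not shown to pair fetuses: over 21 same-numbered pairs the deviations correlated at -0.06 to 0.35, 15 of 21 were over 0.1, among them 3 of the 4 HC and HK pairs and 0 of the 3 NC and HC pairs, 9 of 15 arrays correlated best with their own number, and the numbers follow the slides. The same-numbered NC and NK pairs correlated at 0.197, 0.295 and 0.224. The replicate block also leaves out HC5 in effect, which has no same-numbered fetus.

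None of the values that changed sign belonged to a call. For HC against NC, JUND was -0.0317 with the deposited values, -0.0515 with normexp, -0.0835 with the replicate block, -0.0452 with the slide block and -0.132 to 0.217 with each array omitted, C-JUN A_70_P016313 was -0.00597, -0.0553 and -0.0088 with the deposited values, normexp and the replicate block, C-JUN A_70_P016311 was -0.0839 to 0.337 with each array omitted and EGR1 -0.0493 to 0.169. For NK against NC, JUNB A_70_P041672 was -0.0776 with array weights, -0.0209 with the deposited values, -0.00781 with normexp, -0.0361 with quantile normalization, -0.0462 with the replicate block and -0.126 to 0.299 with each array omitted, FOS A_70_P001561 was -0.0105 with the deposited values and FOS A_70_P016316 was 0.0349 with the slide block and -0.217 to 0.22 with each array omitted. The same ranges were -0.0245 to 0.194 for EGR1, -0.372 to 0.017 for FOS A_70_P026731, -0.0832 to 0.322 for JUNB A_70_P041671, -0.000693 to 0.333 for JUND and -0.205 to 0.0364 for MYC A_70_P030412. For HK against NK, MYC A_70_P030412 was 0.0491, 0.0135 and 0.00702 with the deposited values, normexp and quantile normalization and -0.108 to 0.12 with each array omitted, MYC A_70_P030411 was -0.043 with array weights and -0.115 to 0.0844, FOS A_70_P001561 was -0.0131 to 0.3002 and JUNB A_70_P041672 -0.15 to 0.339.

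FOS A_70_P001561 was well above background on 13 of 16 arrays, and its difference for HC against NC was 0.19 with the deposited values and 0.32 with normexp against 1.03; the cause was not tested.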

Other observations

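None of 5 tested astrocyte genes and none of 7 hypothalamic peptide genes (OXT, SST, NPY, AGRP, POMC, PMCH and GNRH1, the last being well above background on all 16 arrays) was called by limma at an unadjusted p of 0.05 in any of the 5 comparisons. No listed gene of neurons or oligodendrocytes had a named probe. The 1 neutrophil gene, the 2 blood genes and the 1 gene of choroid plexus were not called between HC and NC. Of 4 genes of the anterior pituitary, which lies against the hypothalamus, 0 were called between HC and NC. PRL, CGA and FSHB were not called in any of the 5 comparisons. They differed between HK and HC by -0.80, 0.67 and -0.003. Among all tested probes, 7.04% were called in HK against HC and 8.69% in HK against NK. LHB, a subunit of luteinizing hormone named after its values were seen, was called higher in HK than in HC by 0.19 ± 0.08 (log2, SE; adjusted p = 0.698 by limma, exact permutation p = 0.0476) and than in NK by 0.21 ± 0.09 (adjusted p = 0.496, exact permutation p = 0.0857), and these calls were lost in 9 and 8 of 26 alternatives.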
